A study of Mus musculus with 24 samples.

Results

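Skeletal muscle lies in mouse skin as a thin sheet, the panniculus carnosus, so a skin biopsy holds RNA of muscle fibers beside that of epidermis, hair follicles, fat and immune cells. The genes followed here are 41 skeletal muscle genes for the contractile apparatus, calcium handling and energy supply, taken by symbol from a table of 27179 genes, and all 41 were found there. A muscle fiber contracts when calcium leaves the sarcoplasmic reticulum, binds troponin on the thin filament and lets myosin heads pull on actin, and the calcium is then pumped back at the cost of ATP. Fast fibers use one set of myosins, troponins and calcium pumps and draw on glycolysis and the creatine kinase reaction, whereas slow fibers use other isoforms and oxidative metabolism. Of the 41 genes, 13 are isoforms typical of fast fibers, 6 are isoforms typical of slow fibers, and 22 belong to neither list.

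The 24 RNA-Seq libraries came from skin biopsies of C3H/HeJ mice with alopecia areata (AA), a T cell-mediated loss of hair that the study passed on to mice by skin grafts or by T cell transfer. The treated groups received INCB039110 (called JAK1i), CEP-33779 (JAK2i), PF-06651600 (JAK3i), tofacitinib (a pan-JAK inhibitor) or ruxolitinib (an inhibitor of JAK1 and JAK2). Each of them and the vehicle group had 3 libraries, and pretreatment skin had 6, 1 from each cohort. The paper describes systemic treatment, with a higher dose of JAK1i and JAK2i than of JAK3i, ruxolitinib and tofacitinib, while the labels describe topical treatment and call the vehicle group untreated. No source used here gives the age of the mice or says that the libraries of a group came from separate mice, so the p-values below measure only the spread between libraries.

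Total counts ranged from 17311913 to 21858670 per library. The group of each library rests on the header of the count table. In a second deposited table with 7 genes of a T cell signature, 18 of 24 columns matched the counts of the library of the same name and 6 matched another: JAK1i and JAK2i, JAK1i and JAK3i, and JAK2i and JAK3i each exchanged a pair of libraries. Shares of muscle counts and a fold change are therefore also given without these 6 libraries, which leaves 1 library each of JAK1i, JAK2i and JAK3i. The fit behind that fold change assumes that these groups vary like the other groups. In the count table itself, Cd8a, a marker of the CD8+ T cells of AA, read 1.01, 0.105 and 0.504 CPM (counts scaled to the TMM-adjusted library total) after JAK1i, 2.37, 5.11 and 2.69 CPM after JAK3i, 111, 114 and 89.3 CPM after JAK2i and 97.5, 111 and 122 CPM after vehicle.

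The 41 genes took up a larger part of the RNA after 4 of the 5 inhibitors. They held 15.7, 14.2 and 6.92% of all counts in the JAK1i libraries, 5.23, 4.92 and 6.56% in the JAK3i libraries, 4.68, 4.37 and 4.47% in the ruxolitinib libraries and 6.95, 2.75 and 3.6% in the tofacitinib libraries, against 1.12, 1.33 and 1.46% after vehicle. Every library of these 4 groups lay above every vehicle library. JAK2i libraries held 1.51, 0.98 and 1.5%, which overlaps the vehicle libraries, and pretreatment libraries lay between 0.553% and 1.79% (median 1.51%). Means were 12.3 ± 4.69% after JAK1i, 5.57 ± 0.869% after JAK3i, 4.51 ± 0.159% after ruxolitinib, 4.43 ± 2.22% after tofacitinib, 1.33 ± 0.304% after JAK2i and 1.30 ± 0.175% after vehicle (SD, n = 3 each). The shares were close to equal within ruxolitinib and widely spread within JAK1i and tofacitinib. There, library 3 of JAK1i and library 1 of tofacitinib stood apart from the others of their group. Library 3 of JAK1i is among the 6 libraries that the second table labels otherwise. In bulk skin, fewer or more muscle fibers in a biopsy and less or more RNA per fiber cannot be told apart.

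**Figure D1:**
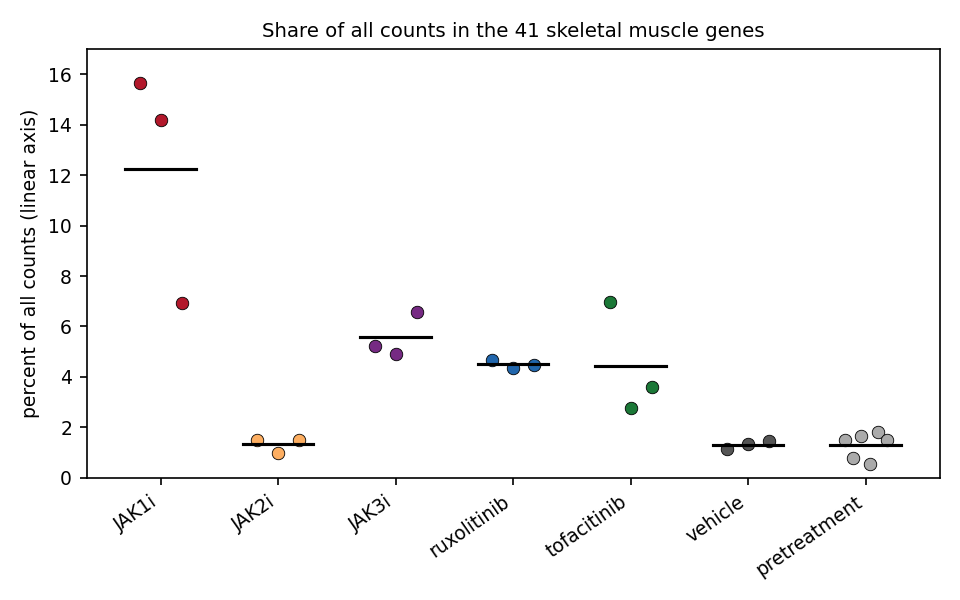
Percent of all counts held by the 41 skeletal muscle genes, in each library (points) with the group mean (line). The libraries of JAK1i lie at 6.92% to 15.7%, those of JAK3i at 4.92% to 6.56%, ruxolitinib at 4.37% to 4.68% and tofacitinib at 2.75% to 6.95%, all above the vehicle libraries at 1.12% to 1.46%, while JAK2i lies at 0.980% to 1.51%.

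Each gene was tested with edgeR's quasi-likelihood test, with the Benjamini-Hochberg adjustment of p-values across 17770 genes past the count filter, and called at an adjusted p below 0.05. All 41 genes passed the filter, and 36 had at least 10 counts in each of the 24 libraries. After JAK1i, 37 of the 41 rose against vehicle and none fell, with a median log2 fold change of 3.45 over the 41, while 28.8% of all genes tested were called higher, 35.4% were called lower and the median over all was -0.06. After JAK3i, 40 rose and none fell (median 2.12), against 31.7% of all genes called higher, 33.1% called lower and a median of 0.02. After ruxolitinib, 34 rose and 1 fell (median 1.75), against 23.6% of all genes called higher and 27.2% called lower. After tofacitinib, 35 rose and none fell (median 1.85), against 24.8% of all genes called higher and 28.2% called lower. JAK2i gave no call among the 41 in either direction with edgeR or DESeq2, none at an unadjusted p below 0.05 and a median of 0.03, and 0% of all genes were called (213 at an unadjusted p below 0.05). In vehicle against pretreatment skin none of the 41 was called by edgeR or DESeq2, none reached an unadjusted p below 0.05, and 0% of all genes were called (232 at an unadjusted p below 0.05). Without the 6 libraries named above, 1 library was left in each of JAK1i, JAK2i and JAK3i. The 41 genes held 15.7% of its counts in JAK1i (library 1), 6.56% in JAK3i (library 3) and 0.98% in JAK2i (library 2).

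**Figure D2:**
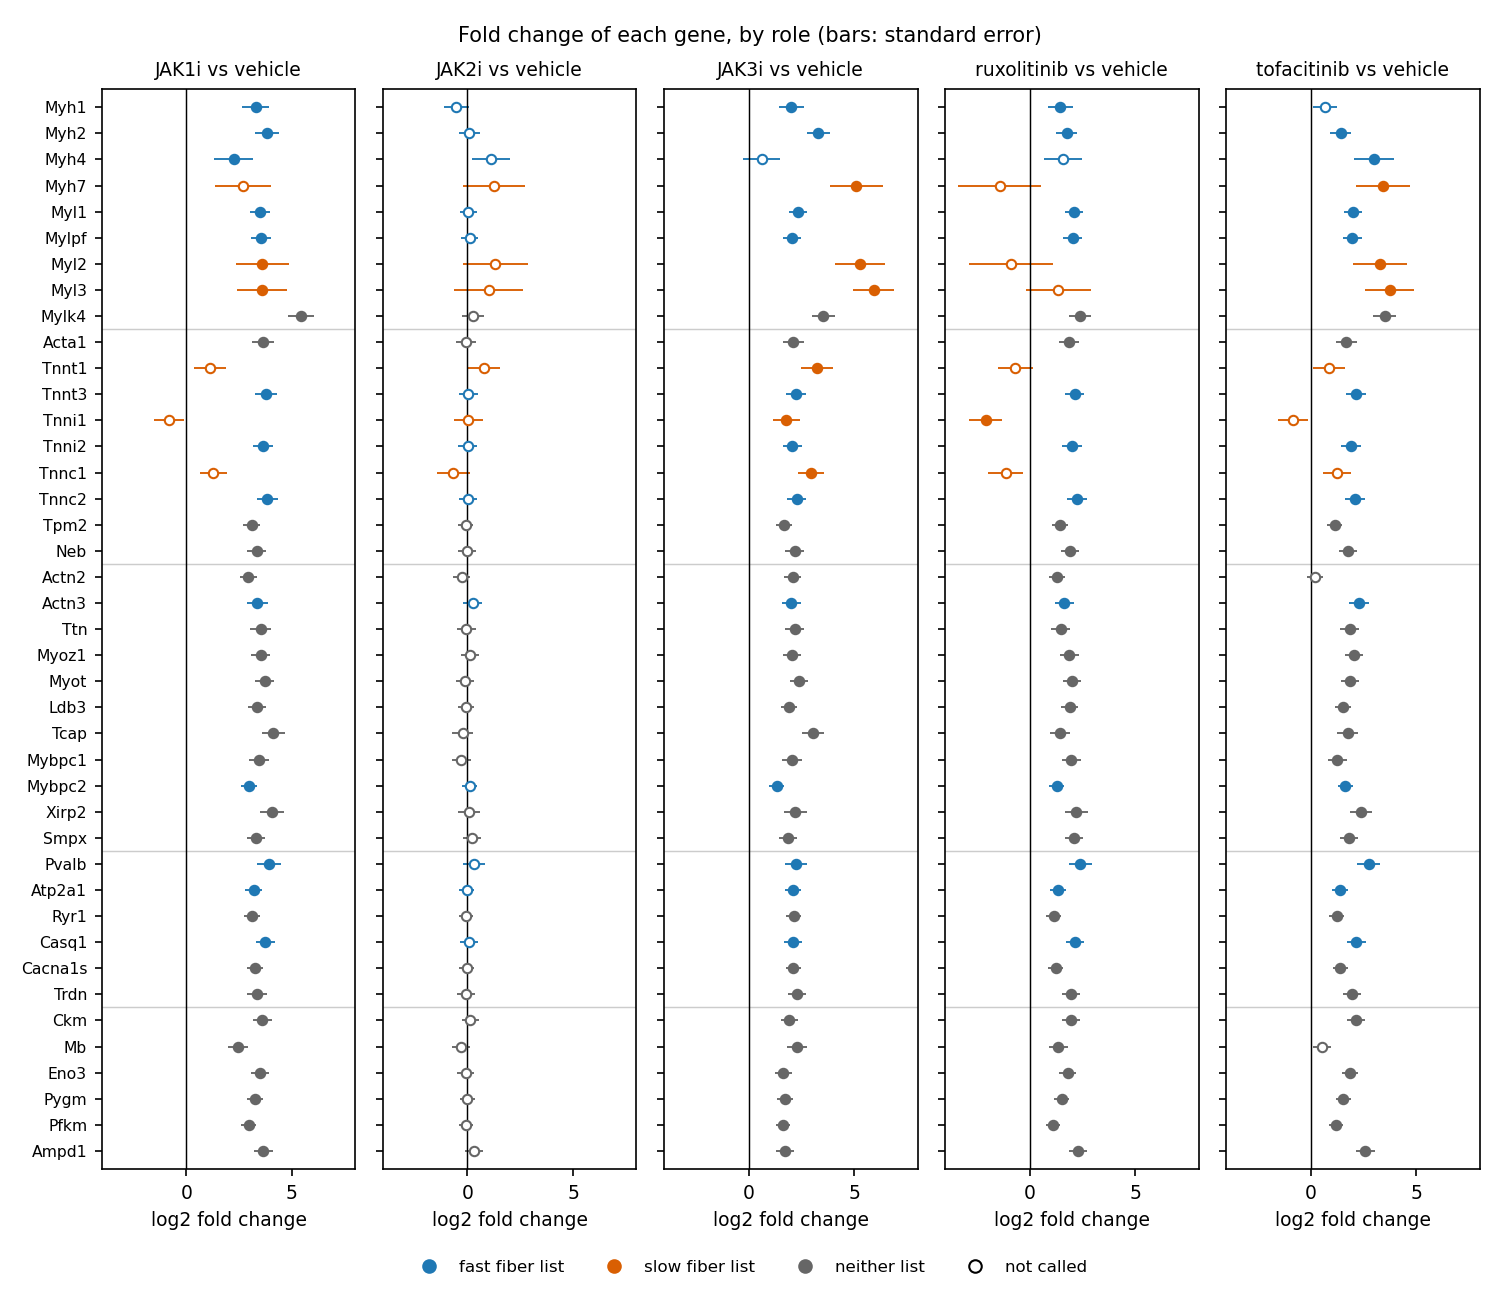
Log2 fold change against vehicle of each of the 41 genes (rows, grouped from the top as myosin motor, thin filament, Z-disc and scaffold, calcium handling and energy metabolism), with 1 panel per inhibitor. Bars are standard errors, filled points passed the test, and colors mark the fast list (blue), the slow list (orange) and neither list (gray). Most genes of a panel lie near their median of 3.45 for JAK1i, 0.03 for JAK2i, 2.12 for JAK3i, 1.75 for ruxolitinib and 1.85 for tofacitinib. Slow genes lie both near that line (Myl2 and Myl3 at 3.60 and 3.57 after JAK1i) and far from it (Tnni1 at -0.81 after JAK1i). The values of Myl2 and Myl3 rest on few reads, with 0, 0 and 9 and with 1, 1 and 0 counts after vehicle. Most of their JAK1i counts came from library 2.

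Within 0.5 log2 units of the median of the 41 lay 31 genes after JAK1i, 31 after JAK3i, 30 after ruxolitinib and 23 after tofacitinib. After JAK2i, where none was called, 34 genes lay in this window. Its limit of 0.5 is close to the median standard error of the 41 genes, 0.44 to 0.47. Of the 35 genes outside the slow list, 35 rose after JAK1i, 34 after JAK3i, 34 after ruxolitinib and 32 after tofacitinib. Mylk4, a kinase of the myosin light chain kinase family, had the largest fold change of the 41 after JAK1i, 5.43 ± 0.60 (standard error, adjusted p = 2.18e-07), with 644, 379 and 255 CPM after JAK1i and 8.37, 8.8 and 12.5 CPM after vehicle. It also rose after JAK3i, ruxolitinib and tofacitinib, by log2 3.54 ± 0.55, 2.38 ± 0.53 and 3.49 ± 0.55.

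The sequence around the starts of a few of the 41 genes is shown, and whether it bears on their levels was not tested. Acta1 (skeletal muscle α-actin) and Ckm (muscle creatine kinase) stand for genes of every fiber, Myh1 for fast fibers and Tnnt1 for slow fibers. Each run is RefSeq sequence of GRCm38.p6, the build of the counts, from 250 bases before to 50 bases after the gene's start, 5′ to 3′ on the gene's strand, at chr8:123894726-123895025 (minus strand) for Acta1, chr7:19410844-19411143 (plus strand) for Ckm, chr11:67199852-67200151 (plus strand) for Myh1 and chr7:4515926-4516225 (minus strand) for Tnnt1. Capitals mark matches on either strand to the E-box CANNTG, which factors such as MyoD bind, to the MEF2 element, to the CArG box of serum response factor and to TATAAA, and matches may overlap each other.
Acta1: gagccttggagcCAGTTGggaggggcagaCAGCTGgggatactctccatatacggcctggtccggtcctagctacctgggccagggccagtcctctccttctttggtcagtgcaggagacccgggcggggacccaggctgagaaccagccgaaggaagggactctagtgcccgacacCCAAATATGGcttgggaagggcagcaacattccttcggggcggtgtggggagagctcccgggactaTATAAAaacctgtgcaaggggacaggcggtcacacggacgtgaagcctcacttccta
Ckm: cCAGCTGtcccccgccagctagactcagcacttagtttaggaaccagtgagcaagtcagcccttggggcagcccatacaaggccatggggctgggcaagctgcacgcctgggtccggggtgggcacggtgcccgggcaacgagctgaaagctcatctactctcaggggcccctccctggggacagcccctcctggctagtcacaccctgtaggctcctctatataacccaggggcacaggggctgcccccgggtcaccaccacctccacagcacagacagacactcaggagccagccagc
Myh1: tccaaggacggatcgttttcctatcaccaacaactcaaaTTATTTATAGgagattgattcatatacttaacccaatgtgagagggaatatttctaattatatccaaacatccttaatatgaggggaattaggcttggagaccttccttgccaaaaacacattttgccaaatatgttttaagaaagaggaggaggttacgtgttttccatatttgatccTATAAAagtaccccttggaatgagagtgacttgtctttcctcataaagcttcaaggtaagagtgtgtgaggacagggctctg
Tnnt1: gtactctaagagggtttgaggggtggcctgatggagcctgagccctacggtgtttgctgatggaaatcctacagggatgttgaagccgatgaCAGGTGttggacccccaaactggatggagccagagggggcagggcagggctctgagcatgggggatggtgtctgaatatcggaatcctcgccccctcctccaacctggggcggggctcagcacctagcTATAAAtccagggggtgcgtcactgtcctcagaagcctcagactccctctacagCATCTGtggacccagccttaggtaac
Acta1 held 2 E-boxes, 1 CArG box and 1 TATAAA, Ckm held 1 E-box, Myh1 held 1 MEF2 element and 2 matches to TATAAA, one of them within the MEF2 element, and Tnnt1 held 2 E-boxes and 1 TATAAA. RefSeq starts were matched for 32 of the 41 genes. An E-box was found in 27 of these 32 (84.4%, against 75.0% of the 27025 genes with a listed start), a MEF2 element in 6 (18.8% against 3.70%), a CArG box in 4 (12.5% against 1.81%) and TATAAA in 7 (21.9% against 15.7%). These counts describe letters in a window of 300 bases, not binding.

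Among the myosin genes, the heavy chains set the fiber type. Myh1 (fiber type 2X), Myh2 (2A) and Myh4 (2B) lie side by side on chromosome 11 (Myh1 at 67200102 to 67224577, Myh2 at 67171027 to 67197517 and Myh4 at 67237812 to 67260447, GRCm38), and their similar sequences make the split of reads between them uncertain. Myh1, the gene of the 41 with the most counts in all, had 32539, 28222 and 9921 CPM after JAK1i, 2170, 972 and 1888 CPM after JAK2i, 7331, 9935 and 12154 CPM after JAK3i, 6146, 6380 and 7212 CPM after ruxolitinib and 8475, 1635 and 1425 CPM after tofacitinib, against 2278, 2843 and 2079 CPM after vehicle and between 759 and 3541 CPM before treatment (median 1684). The 3 groups JAK1i, JAK3i and ruxolitinib lay wholly above vehicle, with log2 fold changes of 3.30 ± 0.64, 2.03 ± 0.61 and 1.45 ± 0.60 (adjusted p = 1.47e-04, 0.00628 and 0.0476), whereas tofacitinib overlapped it (0.68 ± 0.59, adjusted p = 0.345). The call for ruxolitinib was lost when any single library of either group was left out, with an adjusted p between 0.0716 and 0.121, and in fits of the 18 posttreatment libraries (adjusted p = 0.0525, or 0.0512 with the replicate number as a block).

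Myh2 had 3959, 4868 and 1391 CPM after JAK1i, 294, 174 and 296 CPM after JAK2i, 2628, 1238 and 3262 CPM after JAK3i, 757, 786 and 878 CPM after ruxolitinib and 1162, 328 and 433 CPM after tofacitinib, against 219.7, 238 and 262 CPM after vehicle and between 110.1 and 353 CPM before treatment (median 287). It rose after each inhibitor except JAK2i, by log2 3.83 ± 0.56 after JAK1i, 3.31 ± 0.55 after JAK3i, 1.75 ± 0.52 after ruxolitinib and 1.42 ± 0.51 after tofacitinib (adjusted p = 6.65e-06, 2.82e-05, 0.00802 and 0.0251). The tofacitinib call was lost without library 1 of tofacitinib (log2 0.66, adjusted p = 0.289) and without any single vehicle library (adjusted p = 0.0503 to 0.0736).

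Myh4 did not follow the others. It had 2330, 739 and 7927 CPM after JAK1i, 1582, 1563 and 1908 CPM after JAK2i, 2245, 388 and 934 CPM after JAK3i, 3327, 2258 and 1401 CPM after ruxolitinib and 5842, 4916 and 7894 CPM after tofacitinib, against 356, 339.8 and 1620 CPM after vehicle and between 262 and 2805 CPM before treatment (median 851). In JAK1i it was highest in library 3, the library that was lowest for 39 of the 41 genes, and in vehicle it was far higher in library 3 than in the other two. Its standard errors, 0.88 to 0.95 log2 units against vehicle, compare with a median of 0.44 to 0.47 over the 41 genes. It rose after tofacitinib (3.01 ± 0.95, adjusted p = 0.0115) and JAK1i (2.25 ± 0.92, adjusted p = 0.0382), and was the only member not called after JAK3i (0.62 ± 0.88, adjusted p = 0.549). After ruxolitinib its fold change was 1.59 ± 0.90 (adjusted p = 0.148), and this became a call with the replicate number as a block (adjusted p = 0.0397) and without library 3 of vehicle (2.74, adjusted p = 0.0378). The JAK1i call was lost without library 3 of JAK1i (1.10, adjusted p = 0.272), without library 1 or 2 of vehicle (adjusted p = 0.128 each) and in a fit of these 2 groups alone (adjusted p = 0.109). The tofacitinib call was lost without library 1 or 2 of vehicle (adjusted p = 0.0538 and 0.0536). Without the 6 libraries of uncertain label the JAK1i fold change of Myh4 was 1.72.

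Per length of exon, Myh1 was the leading adult heavy chain in most libraries. It held 83.7, 83.4 and 51.3% of the summed CPM per kb of Myh1, Myh2, Myh4 and Myh7 after JAK1i, 59.9, 85.9 and 74.2% after JAK3i, 59.9, 67.5 and 75.8% after ruxolitinib and 54.5, 23.6 and 14.5% after tofacitinib, against 79.7, 83 and 52.2% after vehicle. Libraries 2 and 3 of tofacitinib were dominated by Myh4 instead, at 71.7% and 81.1%. Myh4 exceeded Myh1 in CPM in 6 of the 24 libraries, of which 2 were from tofacitinib, 2 from JAK2i and 2 from before treatment. Myh2 was highest in libraries 1 and 3 of JAK3i, at 21.5% and 19.9%, and at most 14.4% in every other library. Myh7 never exceeded 0.120%.

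**Figure D3:**
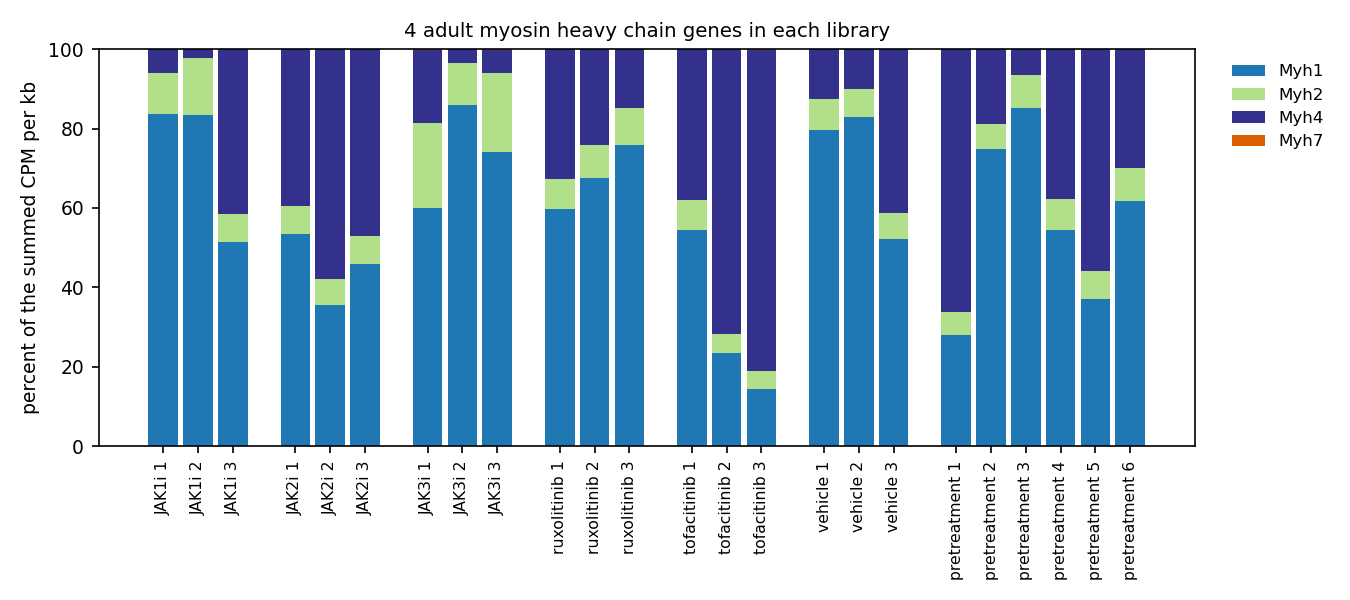
Share of each of 4 adult myosin heavy chain genes in their summed CPM per kb of exon, as stacked bars that add up to 100%, 1 bar per library. Myh4 takes 71.7% and 81.1% in libraries 2 and 3 of tofacitinib, 41.5% in library 3 of JAK1i and 2.21% in library 2 of JAK1i, and Myh7 is too small to be seen.

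The fast light chains Myl1 and Mylpf rose after JAK1i, JAK3i, ruxolitinib and tofacitinib, as Myh2 did, by log2 3.49 ± 0.46, 2.35 ± 0.44, 2.11 ± 0.43 and 2.00 ± 0.43 for Myl1 and by 3.54 ± 0.46, 2.06 ± 0.44, 2.03 ± 0.44 and 1.97 ± 0.43 for Mylpf.

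Of the 9 thin filament genes, 6 rose after JAK1i, 9 after JAK3i, 6 after ruxolitinib, where 1 fell, and 6 after tofacitinib. Acta1, the actin of adult skeletal muscle, had 23375, 22552 and 7931 CPM after JAK1i, 1633, 966 and 1596 CPM after JAK2i, 6236, 4978 and 7829 CPM after JAK3i, 5809, 5166 and 5084 CPM after ruxolitinib and 8120, 2465 and 3574 CPM after tofacitinib, against 1199, 1584 and 1612 CPM after vehicle and between 524 and 2077 CPM before treatment (median 1620). All libraries of the 4 raised groups lay above all vehicle libraries, and the log2 fold changes were 3.62 ± 0.52 after JAK1i, 2.12 ± 0.49 after JAK3i, 1.87 ± 0.49 after ruxolitinib and 1.69 ± 0.49 after tofacitinib (adjusted p = 5.86e-06, 9.00e-04, 0.00345 and 0.00644). Without library 1 of tofacitinib the last of these was 1.04 (adjusted p = 0.0797).

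The fast troponins moved with actin. Tnnt3, the fast troponin T that anchors the troponin complex to tropomyosin, had 11747, 9952 and 3505 CPM after JAK1i, 729.5, 444 and 724 CPM after JAK2i, 2751, 2653 and 3243 CPM after JAK3i, 2582, 2603 and 2861 CPM after ruxolitinib and 4580, 1499 and 2123 CPM after tofacitinib, against 510.0, 642 and 692 CPM after vehicle and between 218 and 848 CPM before treatment (median 719). Tnni2, the fast troponin I that holds actin and myosin apart at rest, had 5337, 4223 and 1453 CPM after JAK1i, 338, 216 and 340.5 CPM after JAK2i, 1174, 1222 and 1342 CPM after JAK3i, 1161, 1159 and 1253 CPM after ruxolitinib and 1916, 598 and 807 CPM after tofacitinib, against 249, 311 and 325 CPM after vehicle and between 113 and 395 CPM before treatment (median 315). Both were called higher after JAK1i, JAK3i, ruxolitinib and tofacitinib, with log2 fold changes between 1.91 and 3.77, as was the fast troponin C Tnnc2, the calcium sensor (2.09 to 3.84). Tpm2 (β-tropomyosin) and Neb (nebulin, a ruler of thin filament length) rose in the same 4 groups, by log2 3.09 ± 0.39 and 3.33 ± 0.45 after JAK1i.

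The 11 genes of the Z-disc, titin and the thick filament scaffold all rose after JAK1i, JAK3i and ruxolitinib, and 10 rose after tofacitinib. Ttn (titin, the molecular spring of the sarcomere) had 11969, 10519 and 3705 CPM after JAK1i, 872, 478 and 863 CPM after JAK2i, 3275, 3238 and 3823 CPM after JAK3i, 2133, 2052 and 2187 CPM after ruxolitinib and 4711, 1586 and 1934 CPM after tofacitinib, against 647, 838 and 799 CPM after vehicle and between 309 and 980.1 CPM before treatment (median 768). Its log2 fold changes were 3.52 ± 0.48, 2.18 ± 0.46, 1.48 ± 0.45 and 1.85 ± 0.45 after JAK1i, JAK3i, ruxolitinib and tofacitinib. Tcap (telethonin, which joins titin ends at the Z-disc) and Xirp2 (an actin-binding repeat protein of muscle) had the largest changes of this group after JAK1i, 4.12 ± 0.54 and 4.07 ± 0.57. Actn2 and Actn3 are both α-actinins that crosslink actin at the Z-disc, Actn3 only in fast fibers, and tofacitinib separated them. Actn2 had 257, 87.9 and 109 CPM after tofacitinib and 111, 145 and 140.0 CPM after vehicle (0.20 ± 0.38, adjusted p = 0.692), so that libraries 2 and 3 of tofacitinib were below every vehicle library. Actn3 had 1376, 642 and 895 CPM after tofacitinib and 166, 177 and 256 CPM after vehicle (2.28 ± 0.46, adjusted p = 3.74e-04). The remaining members, Myoz1, Myot, Ldb3, Mybpc1, Mybpc2 and Smpx, rose in each of the 4 groups, by 2.97 to 3.72 after JAK1i.

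All 6 calcium genes rose after JAK1i, JAK3i, ruxolitinib and tofacitinib. Atp2a1 (SERCA1, the fast calcium pump of the sarcoplasmic reticulum) had 19013, 15463 and 8062 CPM after JAK1i, 1800, 1101 and 1622 CPM after JAK2i, 5854, 6592 and 7449 CPM after JAK3i, 4493, 3772 and 3459 CPM after ruxolitinib and 6026, 2904 and 3379 CPM after tofacitinib, against 1332, 1573 and 1737 CPM after vehicle and between 641 and 2132 CPM before treatment (median 1752). Pvalb (parvalbumin, which buffers calcium in the fastest fibers) had 3147, 2236 and 1020 CPM after JAK1i, 176, 129 and 228 CPM after JAK2i, 695, 585 and 758 CPM after JAK3i, 708, 722 and 811 CPM after ruxolitinib and 1400, 700.0 and 778 CPM after tofacitinib, against 109, 142 and 176 CPM after vehicle and between 37.4 and 253 CPM before treatment (median 194). Neither gene overlapped vehicle in the 4 raised groups. Pvalb changed by more than Atp2a1 after ruxolitinib (2.39 ± 0.54 and 1.34 ± 0.38) and tofacitinib (2.75 ± 0.54 and 1.41 ± 0.38), and by about as much after JAK3i (2.26 ± 0.53 and 2.10 ± 0.39), a difference between genes that was not tested. Casq1 (the calcium store calsequestrin), Trdn (triadin), Ryr1 (the calcium release channel) and Cacna1s (the voltage sensor of the T-tubule) rose by 1.13 to 2.15 after ruxolitinib and by 3.12 to 3.75 after JAK1i.

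All 6 energy genes rose after JAK1i, JAK3i and ruxolitinib, and 5 rose after tofacitinib. Ckm, which rebuilds ATP from creatine phosphate, had 6281, 5024 and 2009 CPM after JAK1i, 439.6, 302 and 457 CPM after JAK2i, 1337, 1218 and 1638 CPM after JAK3i, 1527, 1379 and 1379 CPM after ruxolitinib and 2424, 1032 and 1361 CPM after tofacitinib, against 300.5, 350.4 and 444 CPM after vehicle and between 153 and 525 CPM before treatment (median 437). Mb (myoglobin, the oxygen store of oxidative fibers) had 1099, 1025 and 301 CPM after JAK1i, 145, 82.8 and 132 CPM after JAK2i, 719.5, 662 and 782 CPM after JAK3i, 364, 367 and 396 CPM after ruxolitinib and 397, 123 and 123 CPM after tofacitinib, against 131, 174 and 138 CPM after vehicle and between 70.7 and 193 CPM before treatment (median 107). Libraries 2 and 3 of tofacitinib were below every vehicle library for Mb while they were above all of them for Ckm. The log2 fold changes of Ckm and Mb were 3.60 ± 0.45 and 2.45 ± 0.47 after JAK1i, 1.94 ± 0.42 and 2.29 ± 0.46 after JAK3i, 1.97 ± 0.42 and 1.35 ± 0.45 after ruxolitinib and 2.14 ± 0.42 and 0.54 ± 0.44 after tofacitinib, where Mb was not called (adjusted p = 0.324). The ruxolitinib call of Mb (adjusted p = 0.0169) was lost without library 1 or 3 of vehicle (adjusted p = 0.0589 and 0.0511). Eno3 and Pfkm (glycolytic enzymes of muscle), Pygm (glycogen phosphorylase) and Ampd1 (AMP deaminase) rose in all 4 groups, by 1.12 to 2.28 after ruxolitinib and 2.95 to 3.64 after JAK1i.

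Relative to each other, most of the genes kept their proportions while their summed level varied. The log2 level of a gene had a standard deviation over the 24 libraries with a median of 1.40 across the 41 genes, and its log2 share of the summed counts of the 41 had a median of 0.27, with 0.5 counts added to each value. The share varied less than the level for 37 of the 41 genes, and its standard deviation was below 0.5 for 30. Atp2a1 held between 8.26% and 13.6% of the summed counts in all 24 libraries, Acta1 between 9.17% and 14.1%, Ttn between 4.56% and 6.90%, Pygm between 1.98% and 2.80% and Ckm between 2.52% and 3.92%. The share varied more than the level for Myh4, with 0.462% to 22.8%, and for the slow genes Tnnt1, Tnni1 and Tnnc1. Its standard deviation was also above 0.5 for the other slow genes, Myh7 (2.417), Myl2 (2.325) and Myl3 (1.509). Outside the slow list the same held for Mylk4 (0.828), Myh1 (0.578), Mb (0.545) and Actn2 (0.534). Mylk4 held 0.0574% to 0.368% of the summed counts and Myh1 4.106% to 21.15%. Inside JAK1i, JAK3i and tofacitinib, the library with the highest share of muscle counts was also the highest for most genes: library 1 of JAK1i for 31 of 41, library 3 of JAK3i for 37 and library 1 of tofacitinib for 36. The library of lowest share was the lowest for 39 genes in JAK1i, 34 in JAK3i and 38 in tofacitinib. In ruxolitinib, whose libraries had nearly equal shares, the library of highest share was the highest for 18 genes and that of lowest share the lowest for 17. The corresponding numbers were 21 and 36 in JAK2i and 29 and 34 in vehicle. Because the share sums these same 41 genes, such an order is largely given in advance and tests nothing.

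The slow fiber genes were rare in this skin. The 6 of them summed to 6.26, 25.6 and 3.7 CPM after JAK1i, 2.65, 7.63 and 13.9 CPM after JAK2i, 57.4, 17.4 and 85.3 CPM after JAK3i, 3.17, 2.34 and 1.94 CPM after ruxolitinib and 13.2, 5.95 and 17.6 CPM after tofacitinib, against 8.0, 4.12 and 5.09 CPM after vehicle. The 13 fast genes summed to 97056, 81239 and 39521 CPM after JAK1i, 27154, 26916 and 34826 CPM after JAK3i, 23556, 22047 and 22579 CPM after ruxolitinib and 36855, 15647 and 20784 CPM after tofacitinib, against 6095, 7261 and 8281 CPM after vehicle. JAK3i was thus the only group whose 3 libraries all had more slow-fiber RNA than every library of vehicle. Ruxolitinib was the only group whose 3 libraries all had less. Pretreatment libraries lay between 4.68 and 17.7 CPM for the slow sum and between 2917 and 10372 CPM for the fast sum. Library 2 of JAK3i, at 17.4 CPM, was therefore not above all of them for the slow sum. On the log2 scale, the ratio of slow to fast sums averaged -13.0 ± 1.20 after JAK1i, -13.2 ± 0.323 after ruxolitinib, -11.0 ± 0.692 after tofacitinib, -10.1 ± 1.31 after JAK2i and -9.38 ± 1.05 after JAK3i, against -10.3 ± 0.668 after vehicle (SD, n = 3 each). It was lower than in any vehicle library in all libraries of JAK1i and ruxolitinib, and overlapped vehicle after JAK3i. Before treatment the ratio averaged -9.72 ± 0.788 (SD, n = 6) and ranged from -11.11 to -8.885, so JAK3i overlapped pretreatment skin too. These summed ratios carry no test. The excess of JAK3i over vehicle depends on how the genes are weighted, 0.96 log2 units with summed levels and 2.05 with the mean of log2 levels over genes.

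**Figure D4:**
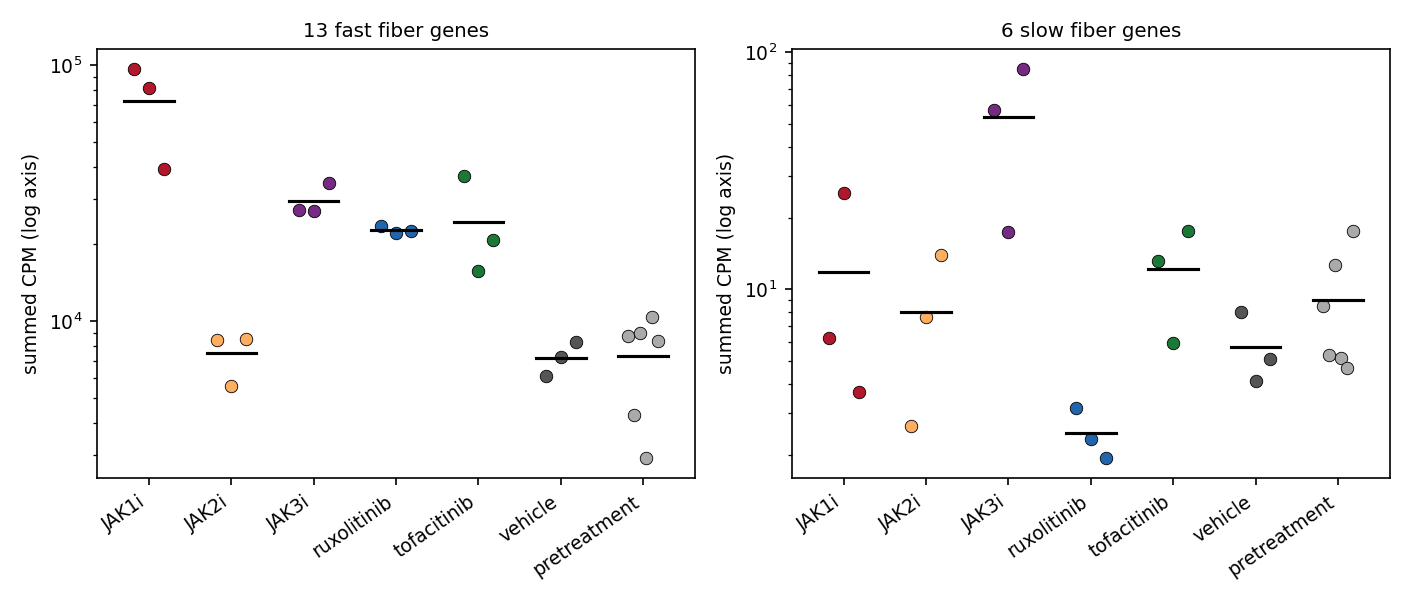
Summed CPM (log axes) of the 13 fast and the 6 slow fiber genes in each library, with the group mean as a line. Fast genes lie at 26916 to 34826 CPM after JAK3i and 22047 to 23556 after ruxolitinib, above 6095 to 8281 after vehicle. Slow genes lie at 17.4 to 85.3 CPM after JAK3i and at 1.94 to 3.17 after ruxolitinib, on either side of 4.13 to 8.0 after vehicle. Before treatment, slow genes lie at 4.68 to 17.7 CPM.

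Single slow genes rest on few reads. Myh7, the slow myosin heavy chain (chromosome 14, 54970684 to 54994626, GRCm38), had 10, 111 and 3 counts after JAK1i, 1, 23 and 22 after JAK2i, 219, 69 and 401 after JAK3i, 0, 4 and 4 after ruxolitinib and 54, 31 and 128 after tofacitinib, against 3, 1 and 17 after vehicle. In CPM these are 0.559, 5.84 and 0.168 after JAK1i, 0.051, 1.19 and 1.24 after JAK2i, 11.6, 3.52 and 20.4 after JAK3i, 0, 0.173 and 0.194 after ruxolitinib and 2.64, 1.52 and 6.8 after tofacitinib, against 0.138, 0.0497 and 0.832 after vehicle and between 0.054 and 2.2 CPM before treatment (median 0.117). It was called higher after JAK3i (5.10 ± 1.26, adjusted p = 0.00146) and tofacitinib (3.40 ± 1.28, adjusted p = 0.0307), and not after JAK1i (2.69 ± 1.32, adjusted p = 0.0802) or ruxolitinib (-1.41 ± 1.96, adjusted p = 0.571). These calls turn on single libraries: the tofacitinib call was lost without library 1 or 2 of vehicle or library 3 of tofacitinib (adjusted p = 0.101, 0.103 and 0.133), and the JAK1i difference became a call without library 3 of vehicle (4.45, adjusted p = 0.0485) or library 1 or 3 of JAK1i (adjusted p = 0.0461 and 0.0234).

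The slow light chains were rarer still. Myl2 had 6, 88 and 8 counts after JAK1i, 138, 51 and 149 after JAK3i, 3, 2 and 0 after ruxolitinib and 25, 12 and 50 after tofacitinib, against 0, 0 and 9 after vehicle, and was called higher after JAK1i, JAK3i and tofacitinib (adjusted p = 0.017, 6.64e-04 and 0.0355) but not after ruxolitinib (adjusted p = 0.739). Myl3 had 4, 19 and 2 counts after JAK1i, 62, 13 and 60 after JAK3i, 4, 1 and 1 after ruxolitinib and 4, 11 and 15 after tofacitinib, against 1, 1 and 0 after vehicle. With 2 vehicle counts in all, the ratio of its summed counts to those of vehicle was scaled by the TMM-adjusted library totals. It was 72.2 after JAK3i (exact 95% counting interval 19.6 to 602), 15.7 after tofacitinib (3.98 to 135), 14.2 after JAK1i (3.55 to 124) and 2.87 after ruxolitinib (0.513 to 29.1). These intervals cover counting error only. Its edgeR calls were higher after JAK1i, JAK3i and tofacitinib (adjusted p = 0.0129, 2.44e-05 and 0.0106) and none after ruxolitinib (adjusted p = 0.482). Myl3 reached 10 counts in only 6 of the 24 libraries, 3 of them from JAK3i, so its passing the filter depended on the groups where it was high. Myl2 reached 10 counts in 9 libraries, mostly of JAK3i and tofacitinib and none of vehicle, so the same limit applies to it.

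The slow troponins had enough reads to be followed in most libraries. Tnnt1, slow troponin T, had 3.74, 8.89 and 1.74 CPM after JAK1i, 1.17, 3.3 and 7.04 CPM after JAK2i, 24.3, 5.47 and 32.6 CPM after JAK3i, 1.91, 1.3 and 0.922 CPM after ruxolitinib and 5.83, 2.26 and 3.88 CPM after tofacitinib, against 3.68, 1.09 and 1.81 CPM after vehicle and between 2.38 and 9.84 CPM before treatment (median 2.8). Tnni1, slow troponin I, had 0.894, 2.63 and 0.784 CPM after JAK1i, 1.27, 2.37 and 4.28 CPM after JAK2i, 7.43, 2.91 and 16.1 CPM after JAK3i, 0.792, 0.563 and 0.437 CPM after ruxolitinib and 1.96, 0.442 and 1.91 CPM after tofacitinib, against 3.82, 2.53 and 1.27 CPM after vehicle and between 1.67 and 6.09 CPM before treatment (median 2.21). Tnnc1, the troponin C of slow and cardiac muscle, had 0.503, 2.58 and 0.448 CPM after JAK1i, 0.051, 0.309 and 0.563 CPM after JAK2i, 3.59, 2.25 and 5.63 CPM after JAK3i, 0.14, 0.173 and 0.34 CPM after ruxolitinib and 1.37, 0.59 and 1.54 CPM after tofacitinib, against 0.322, 0.398 and 0.734 CPM after vehicle. Libraries 1 and 3 of JAK3i stood above all other libraries of the series for Tnnt1 and Tnni1. The 3 genes rose after JAK3i, by log2 3.23 ± 0.75 for Tnnt1, 1.79 ± 0.65 for Tnni1 and 2.97 ± 0.61 for Tnnc1 (adjusted p = 9.14e-04, 0.0205 and 2.97e-04). None of them was called after JAK1i or tofacitinib, with adjusted p between 0.0926 and 0.361, although the fast troponins rose there. Tnni1 was the only member called lower against vehicle, after ruxolitinib (-2.08 ± 0.77, adjusted p = 0.0308), where Tnnt1 was at -0.68 ± 0.82 and Tnnc1 at -1.14 ± 0.81 (adjusted p = 0.514 and 0.253). This call was lost without library 1 or 2 of vehicle (adjusted p = 0.127 and 0.0551) or library 2 or 3 of ruxolitinib (0.0796 and 0.0922), and the JAK3i call of Tnni1 without library 2 or 3 of vehicle (0.0530 and 0.0870) or library 3 of JAK3i (0.197). Tnnc1 became a call after tofacitinib in a fit of these 2 groups alone (adjusted p = 0.0421), and after JAK1i without library 1 or 3 of JAK1i (adjusted p = 0.0341 and 0.0197).

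The inhibitors were also compared directly, in 5 pairs. JAK1i against JAK2i, given at the same systemic dose in the paper, showed 36 of the 41 genes higher and none lower. The median log2 difference was 3.39, and 28.8% of all genes were called higher and 35.4% lower. JAK1i against JAK3i, whose systemic doses differ, showed 29 higher and 4 lower, against 21.9% of all genes called higher and 21% called lower. Those lower after JAK1i were the slow genes Myl3, Tnnt1, Tnni1 and Tnnc1, by log2 -2.35 ± 0.66, -2.11 ± 0.71, -2.60 ± 0.69 and -1.68 ± 0.56 (edgeR, adjusted p = 0.00723, 0.0209, 0.00487 and 0.0199), and among those higher were Ampd1 (1.91 ± 0.42), Eno3 (1.86 ± 0.40) and Ckm (1.67 ± 0.42). Without library 1 of JAK1i, 18 were higher and 2 lower, and 2 were lower without library 3 of JAK1i or library 3 of JAK3i. A fit of these 2 groups alone called 9 higher and none lower. In the second deposited table, library 3 of JAK1i and library 1 of JAK3i carried each other's values. Library 2 of JAK1i and library 1 of JAK2i did so too. Each of these groups may therefore hold a library of another, and the direct comparisons were not repeated without such libraries.

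In the systemic treatment that the paper describes, JAK3i, ruxolitinib and tofacitinib were given at the same dose. JAK3i against ruxolitinib showed 9 genes higher and none lower, against 17.5% of all genes called higher and 19% called lower. The number higher is near the share of all genes. These 9 were the 6 slow genes together with Myh2 (1.56 ± 0.51), Ryr1 (1.01 ± 0.35) and Tcap (1.61 ± 0.48). The slow genes differed by log2 3.87 to 6.52, but Myh7, Myl2 and Myl3 had at most 4 counts in any ruxolitinib library. A fit of JAK3i and ruxolitinib alone called 21 higher and 1 lower. JAK3i against tofacitinib also showed 9 higher, with 1 lower, against 18.7% of all genes called higher and 20.7% called lower. The number higher is again near the share of all genes. Higher after JAK3i were Myl3, Tnnt1, Tnni1, Tnnc1, Myh2, Actn2, Mb, Ryr1 and Tcap, among them Mb by 1.75 ± 0.45 and Actn2 by 1.90 ± 0.39 (adjusted p = 0.00434 and 7.09e-04), and lower was Myh4, by -2.39 ± 0.92 (adjusted p = 0.0460). The number higher was 5 without library 3 of JAK3i, 5 without library 2 of tofacitinib and 14 without library 1 of tofacitinib, and the Myh4 call was lost without library 2 or 3 of JAK3i or library 1 or 3 of tofacitinib. Tofacitinib against ruxolitinib gave no call among the 41 with edgeR or DESeq2, with 6 at an unadjusted p below 0.05 and 0.135% of all genes called higher and 0.236% called lower. Without library 1 of tofacitinib, 2 genes were called lower in that comparison.

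Against pretreatment skin, 37 of the 41 rose after JAK1i, none after JAK2i, 40 after JAK3i, 34 after ruxolitinib and 37 after tofacitinib, against 31.1%, 0%, 34.4%, 26.7% and 28% of all genes called higher. Tnnt1 and Tnni1 fell after ruxolitinib, against 29.8% of all genes called lower. No gene of the 41 fell after JAK1i, JAK2i, JAK3i or tofacitinib, against 38.2%, 0%, 35% and 30.4% of all genes called lower, and for JAK2i none reached an unadjusted p below 0.05. Pretreatment libraries differed among themselves in muscle RNA, and when each cohort was set against its own single pretreatment library the number higher was 34 for JAK1i, 38 for JAK3i, 3 for ruxolitinib and 15 for tofacitinib. In the same fits 9201, 8864, 3953 and 6027 of 18469 genes were called in either direction, and each of these comparisons rests on a single pretreatment library. The pretreatment library of the ruxolitinib cohort held the largest share of muscle counts of the 6, 1.79%.

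Other muscle genes, on lists that do not hold the 41, rose in the same groups. The counts on these and the following lists can be read against all genes tested, of which 28.8%, 31.7%, 23.6% and 24.8% were called higher and 35.4%, 33.1%, 27.2% and 28.2% lower after JAK1i, JAK3i, ruxolitinib and tofacitinib. Of 30 further genes of the sarcomere and the triad, 27 rose after JAK1i, 27 after JAK3i, 25 after ruxolitinib and 22 after tofacitinib. The single gene of the 30 that fell in each of the 4 groups was Atp2a2, the calcium pump of slow and cardiac muscle and of most nonmuscle cells, by log2 -1.14 ± 0.19, -0.92 ± 0.19, -0.75 ± 0.18 and -0.64 ± 0.18 after JAK1i, JAK3i, ruxolitinib and tofacitinib. Of 15 further energy genes, 14, 13, 12 and 11 rose in that order of groups, with the mitochondrial creatine kinase Ckmt2 at 4.02 ± 0.45 after JAK1i. JAK2i gave no call in any of these lists or in those that follow.

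Of 11 genes of satellite cells and regenerating fibers that passed the filter, 8 rose after JAK1i (28.8% of all genes) and 10 after JAK3i (31.7% of all genes). Both counts include Des, which is also among the 30 genes of the sarcomere and the triad. Pax7, Ncam1 and Mymk were not called after JAK1i. After ruxolitinib 2 rose and after tofacitinib 3 rose and Mymk fell, shares near those of all genes called higher (23.6% and 24.8%). Myog (myogenin, a driver of myoblast differentiation) had 10.9, 8.1 and 2.91 CPM after JAK1i, 11.8, 7.82 and 25.7 CPM after JAK3i, 3.36, 4.16 and 3.06 CPM after ruxolitinib and 3.67, 2.31 and 1.01 CPM after tofacitinib, against 2.39, 2.44 and 2.1 CPM after vehicle. Myh3, the embryonic myosin of new fibers, had 19.6, 21.1 and 4.71 CPM after JAK1i, 11, 4.14 and 64.1 CPM after JAK3i, 1.91, 2.34 and 2.33 CPM after ruxolitinib and 4.07, 1.72 and 2.02 CPM after tofacitinib, against 1.52, 0.696 and 0.636 CPM after vehicle. Both genes were highest in library 3 of JAK3i, and both were called higher after JAK1i and JAK3i, by 1.66 ± 0.55 and 2.70 ± 0.56 for Myog and 3.97 ± 0.84 and 4.78 ± 0.85 for Myh3. Mymk (myomaker, which fuses myoblasts) had 3.74, 0.92 and 5.83 CPM after JAK3i and 0.828, 0.199 and 0.196 CPM after vehicle (3.06 ± 0.74, adjusted p = 0.0013), and at most 0.112 CPM in any JAK1i library. Sln (sarcolipin, an inhibitor of the calcium pump) rose only after JAK3i among the 5 comparisons with vehicle, with 27.9, 15.8 and 50.9 CPM after JAK3i and 3.13, 2.68 and 3.92 CPM after vehicle (3.28 ± 0.53, adjusted p = 2.27e-05). The differences between inhibitors for these genes were not tested, and the genes of this paragraph and the next were named after their values had been seen.

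**Figure D5:**
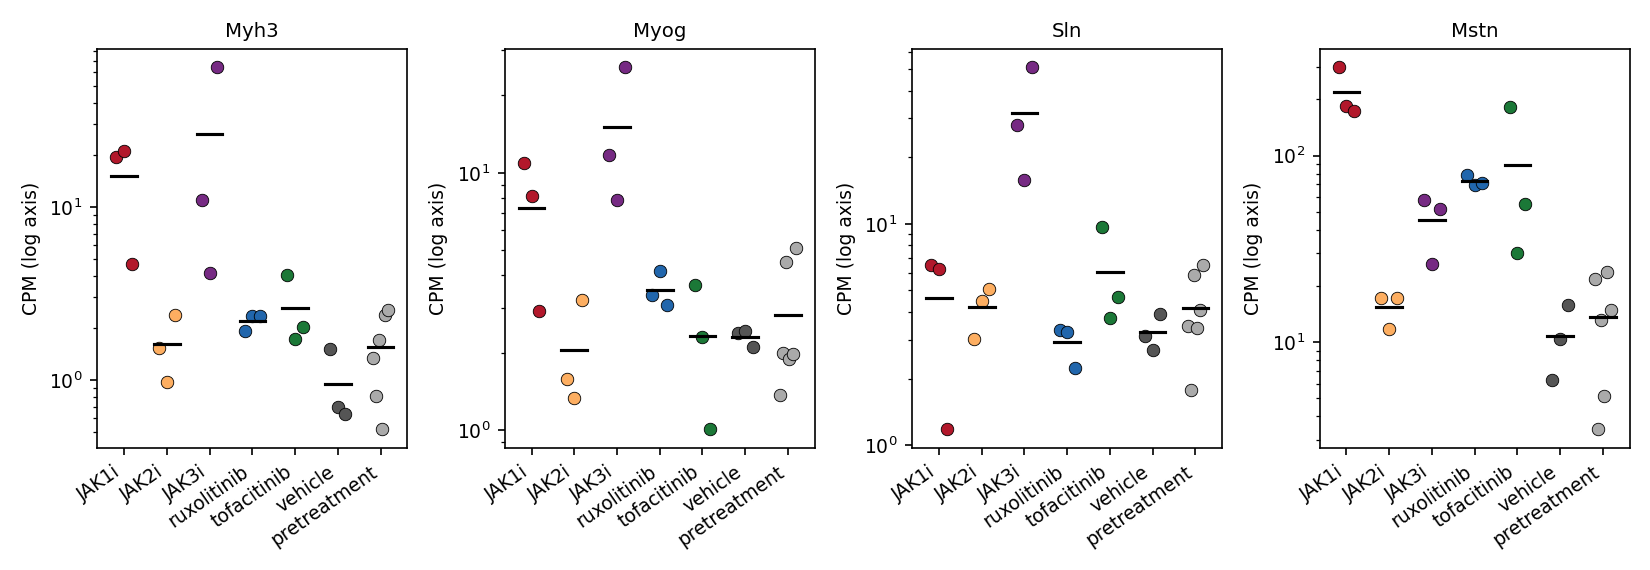
CPM (log axes) of Myh3, Myog, Sln and Mstn in each library, with the group mean as a line. Library 3 of JAK3i is the highest of all 24 for Myh3 (64.1), Myog (25.7) and Sln (50.9), and the JAK1i libraries are high for Mstn (173 to 297 CPM, against 6.30 to 15.9 after vehicle).

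Of 12 genes of muscle atrophy and stress, 5 rose and 3 fell after JAK1i, 7 rose and 4 fell after JAK3i, 4 rose and 3 fell after ruxolitinib, and 2 rose and 2 fell after tofacitinib. Apart from the 7 that rose after JAK3i, these numbers lie near the shares of all genes given above. Mstn (myostatin, a brake on muscle growth made by fibers) had 297, 185 and 173 CPM after JAK1i, 57.6, 26.1 and 51.5 CPM after JAK3i, 79, 69.5 and 70.9 CPM after ruxolitinib and 182, 29.9 and 54.8 CPM after tofacitinib, against 6.3, 10.4 and 15.9 CPM after vehicle. Trim63 (MuRF1, a ubiquitin ligase of the sarcomere) rose by 3.26 ± 0.34 after JAK1i and 2.43 ± 0.33 after JAK3i. Of 9 genes of the neuromuscular junction, 6 rose after JAK1i, 6 after JAK3i, 4 after ruxolitinib and 1 after tofacitinib, and Chrnd, a subunit of the acetylcholine receptor, fell after ruxolitinib (-1.97 ± 0.75) and tofacitinib (-2.71 ± 0.82).

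Markers of other tissue moved in the same libraries. All 14 hair follicle keratins on the list fell after JAK1i, JAK3i, ruxolitinib and tofacitinib. The list mixes hair shaft keratins with the inner root sheath keratins Krt25, Krt27, Krt71 and Krt73. The summed share of the 14 in counts was at most 0.0342%, 0.00187%, 0.00435% and 0.00139% in these groups, against 0.549% to 0.994% after vehicle. Of 12 adipocyte genes, 11, 11, 11 and 12 rose in the same order of groups, and their share ranged over 0.567% to 0.687% in JAK1i, 0.910% to 1.11% in JAK3i, 0.602% to 0.663% in ruxolitinib and 0.590% to 1.06% in tofacitinib libraries, against 0.128% to 0.147% after vehicle. JAK3i thus had more adipocyte RNA than JAK1i and less muscle RNA. Of 7 endothelial genes, 6 rose after JAK1i and 7 after each of JAK3i, ruxolitinib and tofacitinib. Epidermal keratinocyte genes held 1.00% to 1.80% of counts in JAK1i, 0.791% to 1.04% in JAK3i, 1.49% to 1.79% in ruxolitinib and 1.39% to 1.84% in tofacitinib libraries, against 2.69% to 2.96% after vehicle. Fibroblast genes held 0.0663% and 0.0714% in 2 of the JAK1i libraries and 0.463% in the remaining one, 0.476% to 0.585% after JAK3i, 0.558% to 0.781% after ruxolitinib and 0.525% to 0.581% after tofacitinib, against 0.343% to 0.502% after vehicle. Of the 9 fibroblast genes 5 fell after JAK1i and none rose, whereas 3 rose and 1 fell after JAK3i, 3 rose after ruxolitinib and 4 after tofacitinib, with none lower in the last pair of groups. Of 9 cardiac genes, 7 passed the filter, of which 3 rose after JAK1i, 4 after JAK3i, none after ruxolitinib (Myh6 alone had an unadjusted p below 0.05 for a rise, adjusted p = 0.0692) and 2 after tofacitinib, and Nppb fell in each of these groups. Those that rose after JAK3i were Myh6 (4.44 ± 0.67), Actc1 (3.27 ± 0.90), Myl4 (1.77 ± 0.29) and Tnnt2 (0.82 ± 0.27), with Myh6 at 4.43, 2.3 and 7.31 CPM after JAK3i and 0.138, 0.199 and 0.294 CPM after vehicle, and reads of Myh6 and Actc1 may be shared with the similar Myh7 and Acta1. Nppa and Myl7 did not pass, with at most 0.782 and 0.282 CPM in a posttreatment library. The part of tissue composition in the rise of the 41 muscle genes was not tested.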

How the data were processed

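RNA was sequenced from 24 mouse skin libraries in 75-bp paired reads. The authors deposited raw counts per gene (27179 genes with Entrez identifiers), which per the labels were made with Subread on mm10 (GRCm38), and a small score table of 7 signature genes that the authors put on a linear scale. Strand and multimapping settings are not given in the sources used here. Symbols that a spreadsheet had turned into dates were restored for 26 genes, and the 855 genes without a symbol, at most 0.608% of counts, stayed in the fits.

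Counts were fitted over all 24 libraries and 7 groups with edgeR 4.0.16 in R 4.3.3 (TMM scaling, filterByExpr with a minimum count of 10 and a minimum total of 15, quasi-likelihood test, Benjamini-Hochberg adjustment over 17770 genes), where the study used DESeq2 1.18.1. CPM values use TMM-scaled totals. The main alternatives were DESeq2 1.42.0, other scalings and filters, fits of fewer libraries, and leaving out each library. Totals of 17311913 to 21858670 counts limit precision for genes with few counts, and intervals cover counting error only. The scripts were tested on simulated data. The 41 genes, the other gene lists and the tests were chosen with earlier results of these data known.

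Genes printed with every library's value were fixed as Myh4, Myh1, Myh2, Myh7, Acta1, Tnnt3, Tnnt1, Tnni2, Tnni1, Ckm, Mb, Pvalb, Atp2a1 and Ttn, joined by the genes with the largest and smallest fold change and those not called where most were called.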

Additional observations from a re-analysis of the deposited data

Results flagged for a closer look

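In groups of 4 to 10 libraries, a library was marked where its distance to the nearest other, divided by the range of the group, passed Dixon's 95% critical value, here among the 6 pretreatment libraries. Of 43 values tested, 2 were marked, both slow fiber genes in pretreatment library 1, and chance marks about 1 in 20. Myh7 was at 2.20 CPM there, with the next library at 0.780 CPM (gap over range 0.663). Myl2 was at 0.781 CPM, with the next library at 0.244 CPM (gap over range 0.688). That library also had the highest Myh4 level of the 6, and its share of muscle counts, 1.51%, was not the highest.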

How the results depend on the processing

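Of 1719 recomputed values, 578 concerned a comparison as a whole and 41 of those moved. The other 1141 concerned single genes, of which 1099 kept their direction and their side of the threshold, 33 lost a call, 9 gained one and none changed sign past the threshold. Leaving out 1 library gave, against vehicle, 35 to 39 genes higher for JAK1i, 39 to 40 for JAK3i, 31 to 33 for ruxolitinib, 27 to 35 for tofacitinib and 0 for JAK2i, and 0 to 1 lower after ruxolitinib. It gave 0 to 1 lower for JAK1i and 1 to 2 lower for ruxolitinib against pretreatment skin, 18 to 32 higher and 2 to 6 lower for JAK1i against JAK3i, 5 to 14 higher and 0 to 1 lower for JAK3i against tofacitinib, and 0 to 2 lower for tofacitinib against ruxolitinib. The log2 share of counts after ruxolitinib over vehicle was 1.69 to 1.88, and the slow to fast ratio of ruxolitinib minus vehicle was -3.07 to -2.46. A share counted as moved where its log2 value shifted by more than the SD of log2 shares in the first group named. The close ruxolitinib libraries thus mark small shifts. Tofacitinib, at 6.95, 2.75 and 3.6%, and JAK1i, at 15.7, 14.2 and 6.92%, shifted by more without 1 library and were not marked. With each cohort's own pretreatment library, 3 genes were higher and 0 lower after ruxolitinib and 15 higher after tofacitinib. Ruxolitinib had 1 gene lower than pretreatment skin with RLE size factors, with no filter, with a stricter filter and with scaling factors set without muscle genes. A fit of only the pair of groups gave 9 higher and 0 lower for JAK1i against JAK3i, and 21 higher and 1 lower for JAK3i against ruxolitinib. Without Myh1, Acta1 and Atp2a1, the 3 genes of highest count, the log2 share after ruxolitinib over vehicle was 1.87. With the mean of log2 CPM over genes, the slow to fast ratio minus vehicle was 2.05 for JAK3i, -2.47 for ruxolitinib and 0.23 for tofacitinib, the last of opposite sign to the -0.66 from summed levels. The cause of these shifts was not tested.

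Replicate numbers are shared between groups, and 4 of 45 pairs of same-numbered libraries had a correlation of deviations above 0.1 (range -0.173 to 0.29). The median was -0.01, against 0.003 for pairs with other numbers. Such correlations cannot exclude a pairing or a shared batch. With the replicate block, 37 genes were higher after JAK1i, 0 after JAK2i, 40 after JAK3i, 34 after ruxolitinib and 33 after tofacitinib, and 2 were lower for JAK3i against tofacitinib. Depth limits the slow genes: Myl3 had at least 10 counts in 6 of 24 libraries and Myl2 in 9.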
